A study of Mus musculus with 9 samples.

Results

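The genes described here are 36 members of the acetylation machinery: the 11 zinc-dependent histone deacetylases (Hdac1 to Hdac11), the 7 sirtuins (Sirt1 to Sirt7), 9 acetyltransferases, the bromodomain readers Brd2 and Brd3, 4 scaffolds of deacetylase-containing corepressor complexes, and the FOXO factors Foxo1, Foxo3 and Foxo4. They were taken by symbol, through GENCODE mouse release M21 on GRCm38, from the 29678 genes of the count tables, and all 36 were found. All 36 also passed the filter on low counts that left 17967 genes to test. The study measured poly(A)-selected RNA of mouse kidney by sequencing, 24 h after reperfusion. BHBNa_bIRI is bilateral ischemia-reperfusion injury after pretreatment with sodium beta-hydroxybutyrate (BHB), bIRI is the same injury without BHB, and Sham is a sham operation. The strain, sex and age of the mice, the BHB dose and the length of ischemia are not given in the sources used here, nor whether each library came from 1 animal or a pool.

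Acetyltransferases write acetyl groups on lysines of histones and other proteins, deacetylases remove them, and bromodomain proteins bind acetylated histone tails. Zinc-dependent deacetylases mostly work inside corepressor complexes, while sirtuins use NAD and so follow the metabolic state of the cell, with Sirt3, Sirt4 and Sirt5 in mitochondria. BHB, a ketone body, has been reported as an inhibitor of class I histone deacetylases, with higher Foxo3 and metallothionein expression in mouse kidney. The comparisons bear on whether injury, and BHB given before it, went with different transcript levels of this machinery. Enzyme activity and acetylation were not measured.

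Total counts per library were 33477985 to 45909063. The bIRI table labelled bIRI 2 equals the rounded-down mean of bIRI 1 and bIRI 3 at all 15753 genes compared, so it was left out, and 3 BHBNa_bIRI, 2 bIRI and 3 Sham libraries remained. Nothing in the sources used here says that these came from separate animals, so p-values measure the spread between libraries, which may be technical. The 2 bIRI libraries differ: 0.573% of the counts of bIRI 3 fell on long intergenic RNAs, against 0.140% to 0.179% in the other 7 libraries. Mitochondrially encoded transcripts took 24.0% to 30.3% of counts in BHBNa_bIRI, 15.9% in both bIRI libraries and 11.2% to 13.3% in Sham. The tissue label could be checked, in CPM (a gene's count scaled to a common library size), against 10 proximal tubule markers, all detected, whose summed level was 1703 to 1896 CPM in BHBNa_bIRI, 1407 to 1586 CPM in bIRI and 13636 to 15520 CPM in Sham. The 8 tubular injury markers summed to 15537 to 17131 CPM in BHBNa_bIRI, 16613 to 26663 CPM in bIRI and 585 to 711 CPM in Sham. The 8 neutrophil markers summed to 42.1 to 75.1 CPM in BHBNa_bIRI, 5.47 to 14.8 CPM in bIRI, where Ly6g was at 0, and 1.44 to 2.12 CPM in Sham, where Ly6g was at 0 too. The 10 macrophage and monocyte markers summed to 203 to 246 CPM in BHBNa_bIRI, 128 to 152 CPM in bIRI and 124 to 209 CPM in Sham. The part of these shifts in the values below was not tested, and in whole kidney fewer cells of a type and less RNA per cell cannot be told apart.

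In bIRI over Sham, 5 of the 36 genes rose and 7 fell (edgeR quasi-likelihood test, adjusted p below 0.05), against 18.9% of all genes tested that rose and 16.2% that fell. Those that rose were Hdac2, Hdac7, Sirt1, Crebbp and Brd3, and those that fell were Hdac5, Sirt2, Sirt7, Sirt3, Sirt5, Foxo1 and Foxo4. The median log2 fold change of the 36 was -0.03, beside 0.08 over all genes tested. With upper-quartile scaling the split was 8 higher and 6 lower, and over all genes 3808 higher and 2611 lower, against 3396 and 2907 with the scaling used here. With length and GC trends taken out the split was 7 higher and 5 lower, and over all genes 3634 higher and 2935 lower.

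In BHBNa_bIRI over Sham, 5 genes rose (Hdac7, Hdac6, Sirt6, Kat2a and Sin3b) and 16 fell, against 21.3% of all genes tested that rose and 22.2% that fell. The 16 were Hdac8, Hdac5, Hdac11, Sirt3, Sirt5, Ep300, Kat2b, Kat5, Kat6a, Kat6b, Kat7, Ncor1, Rcor1 and all 3 FOXO genes. Their median log2 fold change over the 36 was -0.38, beside 0.04 over all genes tested. With length and GC trends taken out, 7 were higher and 13 lower, and of all 17967 genes tested 4280 were higher and 3991 lower. Both comparisons use the same Sham libraries: 6 genes were called in the same direction in both, namely Hdac7, higher, and Hdac5, Sirt3, Sirt5, Foxo1 and Foxo4, lower. The share of all genes tested called alike in both was not counted, so no conclusion about these genes as a set is drawn from the 6.

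In BHBNa_bIRI over bIRI, 1 gene rose, Hdac5, and 6 fell, namely Hdac8, Ep300, Kat2b, Kat6a, Kat6b and Rcor1, against 4.88% of all genes tested that rose and 8.65% that fell. Upper-quartile scaling gave 2 higher and 6 lower, and of all 17967 genes tested 1032 higher and 1389 lower. The median log2 fold change of the 36 was -0.33, beside -0.05 over all genes tested. All 7 calls rest on few libraries: none of the 36 was called without BHBNa_bIRI 1, BHBNa_bIRI 3, Sham 1 or Sham 2. In these omissions 0 or 1 of all genes was called. An unadjusted edgeR p below 0.05 was then found for 13 to 16 of the 36, beside 4509 to 5566 of the 17819 to 17893 genes tested. Without bIRI 3, 1 gene (Hdac10) was higher and 2 (Ep300 and Kat6b) were lower, beside 1.38% of all genes higher and 2.89% lower. Without bIRI 1, 6 were higher and 16 lower, beside 21.4% of all genes higher and 21.4% lower. None was called with length and GC trends taken out, when 0.0111% of all genes was called. The direction of the 7 held under all 19 alternatives run.

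CPM did not overlap between the groups for 23 of the 36 genes in bIRI over Sham, beside 55.9% of all genes tested. The count was 24 of 36 in BHBNa_bIRI over bIRI, beside 46.0%, and in BHBNa_bIRI over Sham 30 of 36, beside 64.8%.

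**Figure D1:**
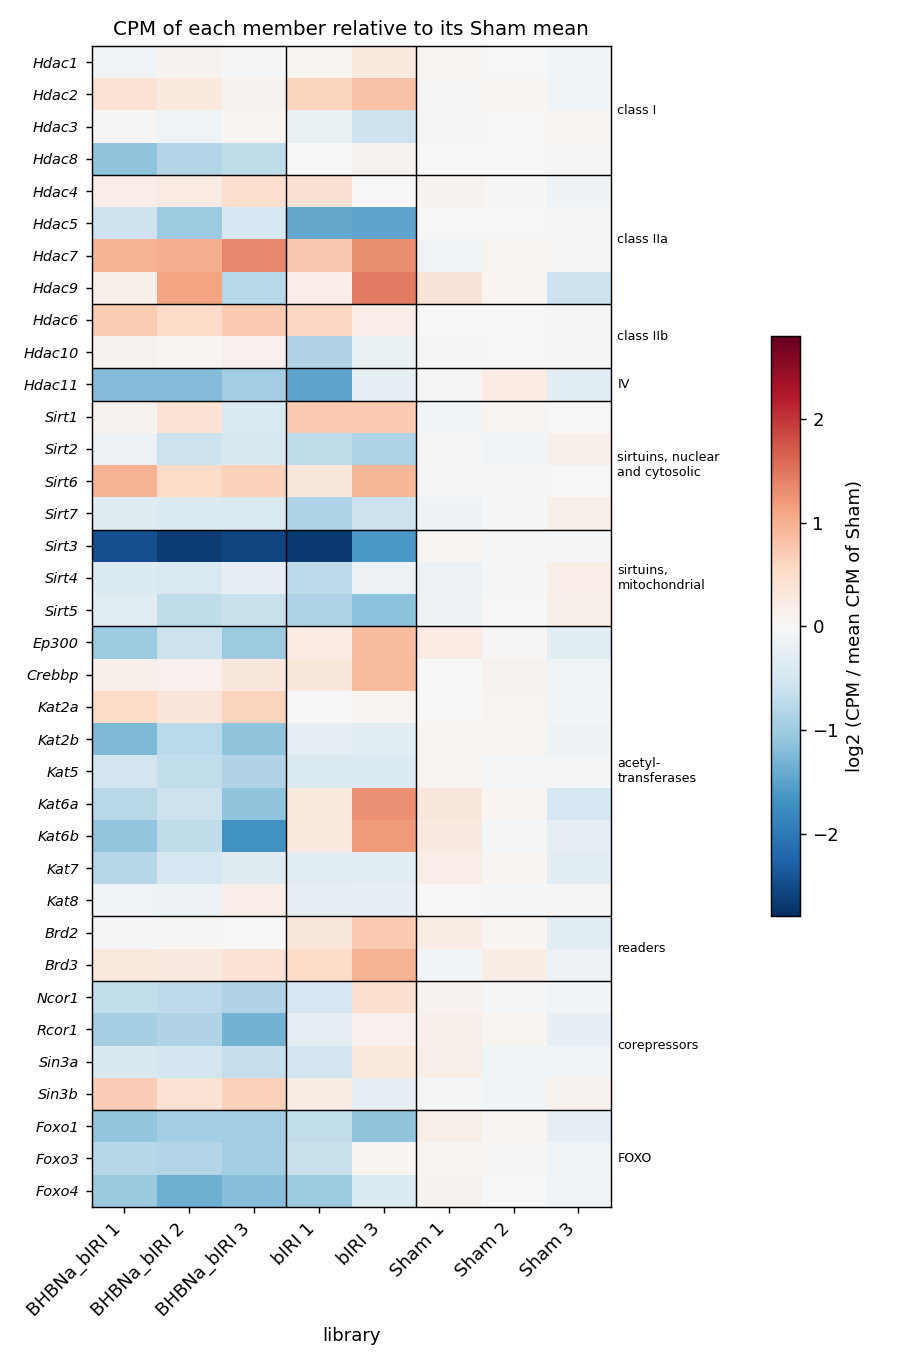
CPM of the 36 genes in each of the 8 libraries (columns), as log2 of the ratio to the gene's Sham mean (colour), with lines between functional classes. Sirt3 is the darkest row in all 5 injured libraries, and bIRI 3 is higher than bIRI 1 for Kat6a, Kat6b, Ncor1 and Hdac11.

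**Figure D2:**
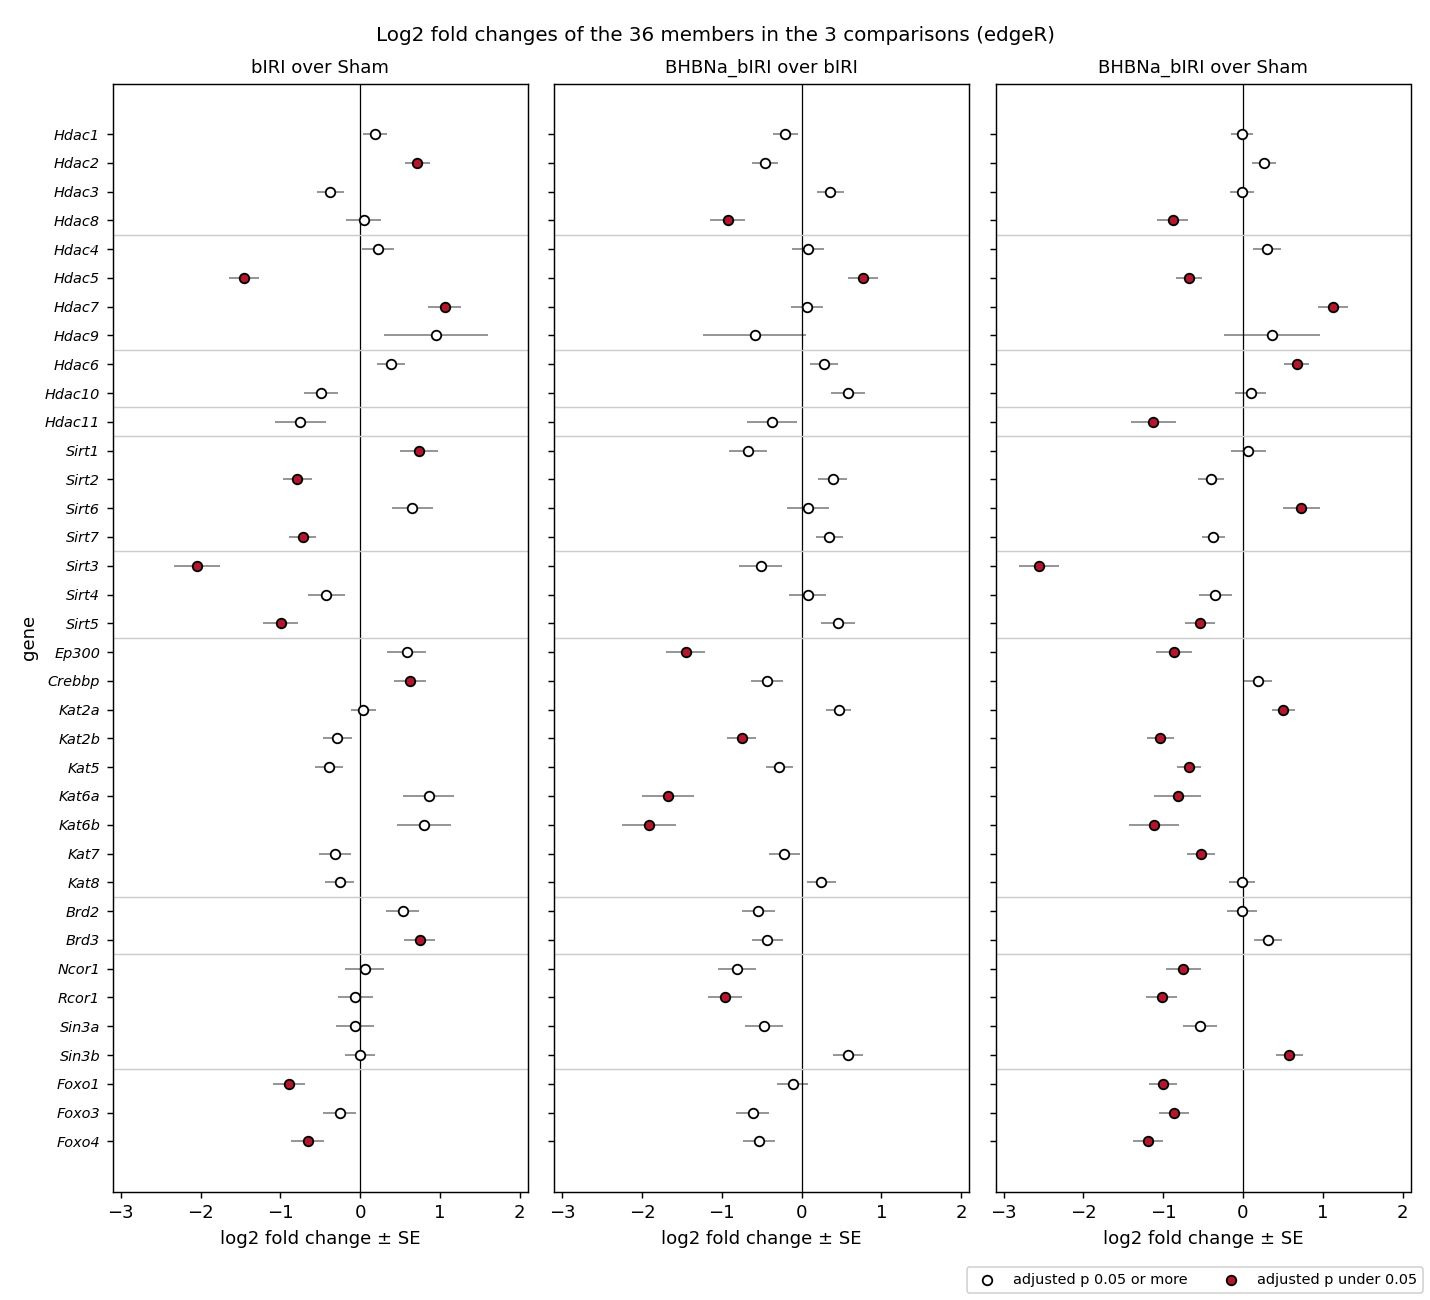
Log2 fold change with SE of each gene in the 3 comparisons, filled where the edgeR adjusted p is below 0.05. The filled points number 12 in bIRI over Sham, 7 in BHBNa_bIRI over bIRI and 21 in BHBNa_bIRI over Sham.

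The promoters of 4 genes are printed because the results below turn on these genes: Sirt3 had the largest change, Hdac5 was called in all 3 comparisons, Hdac7 was the largest rise, and Foxo3 is the gene tied to BHB in earlier reports. Each is a RefSeq window on GRCm38.p6 from 250 bases before the start to 50 after it, on the minus strand: Sirt3 at chr7:140882260-140882559, Hdac5 at chr11:102230123-102230422, Hdac7 at chr15:97844453-97844752 and Foxo3 at chr10:42276646-42276945. For each gene 1 window was used, that of the RefSeq start nearest the GENCODE gene start; Hdac7 has 3 other RefSeq starts and Sirt3 has 1, which were not searched. Capitals mark the motifs found among 6 searched on both strands: the FOXO element GTAAACA, the estrogen-related receptor element AAGGTCA, the E-box CACGTG, the cAMP response element TGACGTCA, the SP1 box GGGCGG and the CCAAT box CCAAT.
Sirt3: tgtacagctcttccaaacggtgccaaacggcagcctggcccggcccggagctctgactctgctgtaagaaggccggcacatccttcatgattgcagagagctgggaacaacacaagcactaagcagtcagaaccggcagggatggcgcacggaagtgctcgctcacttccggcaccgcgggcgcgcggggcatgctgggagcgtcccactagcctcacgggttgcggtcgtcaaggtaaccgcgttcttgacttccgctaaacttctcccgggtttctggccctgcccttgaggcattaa
Hdac5: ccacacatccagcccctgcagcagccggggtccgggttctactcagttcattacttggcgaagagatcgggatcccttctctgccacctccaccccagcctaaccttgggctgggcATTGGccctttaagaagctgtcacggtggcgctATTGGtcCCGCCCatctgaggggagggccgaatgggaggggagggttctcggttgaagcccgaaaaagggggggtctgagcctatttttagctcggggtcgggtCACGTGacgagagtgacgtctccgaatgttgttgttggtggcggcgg
Hdac7: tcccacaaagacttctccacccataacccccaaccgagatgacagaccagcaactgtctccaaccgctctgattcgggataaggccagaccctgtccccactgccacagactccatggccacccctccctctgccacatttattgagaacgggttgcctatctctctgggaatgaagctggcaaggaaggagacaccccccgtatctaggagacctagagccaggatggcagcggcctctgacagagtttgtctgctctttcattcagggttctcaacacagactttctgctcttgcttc
Foxo3: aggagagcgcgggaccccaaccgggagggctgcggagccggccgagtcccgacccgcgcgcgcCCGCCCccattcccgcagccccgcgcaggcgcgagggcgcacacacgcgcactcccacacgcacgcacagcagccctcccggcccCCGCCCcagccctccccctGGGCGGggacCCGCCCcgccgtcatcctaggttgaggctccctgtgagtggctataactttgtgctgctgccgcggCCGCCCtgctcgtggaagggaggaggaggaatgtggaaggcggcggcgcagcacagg
No match of the 6 lay in the printed Sirt3 and Hdac7 windows. The Hdac5 window held an E-box at +3, an SP1 box at -94 and CCAAT boxes at -134 and -101, the last 3 on the minus strand of the window, and the Foxo3 window held 5 SP1 boxes. Of the 36 genes, 31 had a RefSeq window, and these had a median GC content of 61.0% and a median of 20 CG pairs, against 52.67% and 7 over 32851 windows. The SP1 box was in 20 of the 31 windows and in 35.66% of all windows, the CCAAT box in 14 and 37.41%, the E-box in 3 (Hdac5, Sirt1 and Kat5) and 7.15%, and the receptor element in 2 (Sirt5 and Kat7) and 4.718%. The FOXO element was in none of the 31 and in 3.65% of all windows, and the cAMP response element in none and in 1.79%. A match is a description of the letters and says nothing of binding.

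Levels between genes were compared as CPM per kilobase of merged exons. In Sham the highest were Sirt2, a mainly cytosolic sirtuin, at 20.4 ± 1.7 CPM per kb (SD, n = 3), the cytosolic tubulin deacetylase Hdac6 at 16.3 ± 0.29, Hdac1 at 15.4 ± 0.64 and Hdac3 at 15.1 ± 0.46. Hdac1, Hdac3 and Brd2, at 14.6 ± 2.7, did not differ beyond their spread. The lowest were Hdac4 at 0.875 ± 0.077, Kat6b at 0.737 ± 0.14 and Hdac9 at 0.0315 ± 0.0098 CPM per kb. Per kilobase of the longest transcript the order changed: Sirt3 moved to rank 2 from rank 7, after Sirt2, and Hdac6 to rank 7 from rank 2. With BHB before injury Hdac6 was at 26.03, in bIRI at 21.4 CPM per kb. Sirt3 was at 1.85 CPM per kb in BHBNa_bIRI and 2.64 in bIRI, against 10.9 ± 0.45 in Sham.

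Among class I deacetylases, the mostly nuclear enzymes that BHB is reported to inhibit, Hdac2 of the 4 passed in bIRI over Sham and Hdac8 in BHBNa_bIRI over bIRI. Hdac2 was at 39.0, 35.4 and 31.3 CPM in BHBNa_bIRI, 45.1 and 51.5 CPM in bIRI, and 29.8, 30.3 and 27.9 CPM in Sham. The bIRI libraries were the highest, and no groups overlapped. Hdac2 rose by 0.72 on the log2 scale in bIRI over Sham (SE 0.16, edgeR adjusted p = 0.00825). Its log2 fold change in BHBNa_bIRI over bIRI was -0.46 (SE 0.16, adjusted p = 0.0827), and over Sham 0.26 (SE 0.15, adjusted p = 0.173), neither of which passed the test. Hdac8 (ENSMUSG00000067567, chromosome X, 102284639 to 102505359 on GRCm38), an enzyme that acts outside the large corepressor complexes, was at 3.96, 4.87 and 5.24 CPM in BHBNa_bIRI, 8.54 and 9.29 CPM in bIRI, and 8.67, 8.77 and 8.50 CPM in Sham. All 3 BHBNa_bIRI libraries lay below the other 5. Hdac8 was 1.90-fold lower in BHBNa_bIRI than in bIRI (log2 fold change -0.93, SE 0.22, adjusted p = 0.0331) and 1.84-fold lower than in Sham (-0.88, SE 0.20, adjusted p = 0.00631). The call against bIRI held without bIRI 1 and was lost without each of the other 7 libraries in turn, with log2 fold changes of -1.01 to -0.82 over all 8 omissions, while the call against Sham held in all 8 omissions.

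Hdac1 and Hdac3 passed no test. Hdac1, which sits with Hdac2 in the Sin3, NuRD and CoREST complexes, was at 49.5, 56.8 and 50.6 CPM in BHBNa_bIRI, 56.0 and 64.3 CPM in bIRI, and 54.7, 53.6 and 50.4 CPM in Sham. Its log2 fold changes were 0.19 (SE 0.16, adjusted p = 0.384) in bIRI over Sham, -0.20 (SE 0.16, adjusted p = 0.382) in BHBNa_bIRI over bIRI and -0.02 (SE 0.14, adjusted p = 0.934) in BHBNa_bIRI over Sham. Hdac3, the deacetylase of the NCoR complexes, was at 63.0, 56.0 and 63.7 CPM in BHBNa_bIRI, 53.4 and 41.3 CPM in bIRI, and 59.6, 60.9 and 63.3 CPM in Sham. Both bIRI libraries were the lowest of the 8. Its log2 fold change was -0.37 (SE 0.17, adjusted p = 0.116) in bIRI over Sham, 0.36 (SE 0.17, adjusted p = 0.16) in BHBNa_bIRI over bIRI and -0.01 (SE 0.15, adjusted p = 0.965) in BHBNa_bIRI over Sham.

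Of the 4 class IIa deacetylases, which shuttle between nucleus and cytoplasm and restrain MEF2 factors, Hdac5 was lower and Hdac7 higher against Sham in both comparisons, and Hdac4 and Hdac9 passed no test. Hdac5 (ENSMUSG00000008855, chromosome 11, 102194432 to 102230166 on GRCm38) was at 44.2, 32.8 and 47.4 CPM in BHBNa_bIRI, 24.8 and 23.7 CPM in bIRI, and 65.6, 65.7 and 68.1 CPM in Sham. The BHBNa_bIRI libraries lay between the other groups, and no groups overlapped. Hdac5 fell by 1.46 on the log2 scale in bIRI over Sham (SE 0.19, adjusted p = 0.000631). It was 1.71-fold higher in BHBNa_bIRI than in bIRI (log2 fold change 0.77, SE 0.19, adjusted p = 0.0349) and stayed below Sham (-0.68, SE 0.16, adjusted p = 0.00877). Both calls against Sham held in all 19 alternatives. The call of BHBNa_bIRI over bIRI held without bIRI 1 or BHBNa_bIRI 2 and was lost without each of the other 6 libraries in turn, with log2 fold changes of 0.67 to 0.92 over all 8 omissions.

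Hdac7 (ENSMUSG00000022475, chromosome 15, 97792664 to 97844502 on GRCm38), known from endothelial cells and thymocytes, was higher. It was at 61.9, 64.2 and 80.5 CPM in BHBNa_bIRI, 53.5 and 78.0 CPM in bIRI, and 29.1, 33.4 and 32.2 CPM in Sham. Every injured library was above every Sham library. Hdac7 was 2.08-fold higher in bIRI than in Sham (log2 fold change 1.06, SE 0.20, adjusted p = 0.00389) and 2.18-fold higher in BHBNa_bIRI than in Sham (1.12, SE 0.19, adjusted p = 0.0013). Both calls held in all 19 alternatives, and BHBNa_bIRI over bIRI was 0.07 (SE 0.21, adjusted p = 0.846). The 10 endothelial markers summed to 752 to 1204 CPM in BHBNa_bIRI, 660 to 1148 CPM in bIRI and 801 to 868 CPM in Sham. Of these markers, 1 rose and 0 fell in bIRI over Sham, and 2 rose and 1 fell in BHBNa_bIRI over Sham. The part of endothelial content in the Hdac7 values was not tested. Hdac4 was at 15.8, 16.3 and 19.1 CPM in BHBNa_bIRI, 18.6 and 13.8 CPM in bIRI, and 14.9, 14.1 and 12.5 CPM in Sham and passed no test; an RNA gene on the other strand, Gm26720, overlaps 22.4% of its exon bases. Hdac9 was near the limit of these libraries, with 10 to 58 counts and SEs of 0.60 to 0.65.

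Among the remaining zinc-dependent enzymes, Hdac6 was higher and Hdac11 lower with BHB before injury than in Sham. Hdac6 was at 157, 139 and 159 CPM in BHBNa_bIRI, 141 and 108 CPM in bIRI, and 94.3, 93.9 and 97.0 CPM in Sham. All injured libraries were above all Sham libraries, and bIRI 3 was the nearest to Sham. Hdac6 rose by 0.67 in BHBNa_bIRI over Sham (SE 0.16, adjusted p = 0.00812), in all 19 alternatives, and was at 0.39 in bIRI over Sham (SE 0.18, adjusted p = 0.113). Hdac10, a polyamine deacetylase, was at 14.9, 14.6 and 15.3 CPM in BHBNa_bIRI, 7.84 and 12.1 CPM in bIRI, and 13.7, 14.0 and 14.3 CPM in Sham. The bIRI libraries were the lowest, but the log2 fold changes of -0.49 (SE 0.21, adjusted p = 0.104) in bIRI over Sham and 0.58 (SE 0.22, adjusted p = 0.0907) in BHBNa_bIRI over bIRI did not pass; without bIRI 3 both passed, at -0.84 and 0.93. Hdac11, the only class IV member, was at 12.6, 12.6 and 14.9 CPM in BHBNa_bIRI, 10.48 and 24.1 CPM in bIRI, and 29.9, 33.9 and 23.4 CPM in Sham. It was 2.18-fold lower in BHBNa_bIRI than in Sham (log2 fold change -1.12, SE 0.29, adjusted p = 0.0113), in all 19 alternatives. In bIRI over Sham it was at -0.75 (SE 0.32, adjusted p = 0.0971), and without bIRI 3 it was called at -1.47. The uncharacterised gene Gm44002 overlaps 15.4% of its exon bases on the other strand.

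The mitochondrial sirtuins held the largest change of all 36 genes. Sirt3 (ENSMUSG00000025486, chromosome 7, 140863666 to 140882309 on GRCm38), the main mitochondrial deacetylase, was at 11.9, 10.3 and 10.9 CPM in BHBNa_bIRI, 10.2 and 21.3 CPM in bIRI, and 68.3, 64.0 and 63.4 CPM in Sham. bIRI 3 was the highest injured library, and no injured library reached the Sham range. Sirt3 was 4.13-fold lower in bIRI than in Sham (log2 fold change -2.05, SE 0.29, adjusted p = 0.000823) and 5.90-fold lower in BHBNa_bIRI than in Sham (-2.56, SE 0.25, adjusted p = 8.31e-05). Both held in all 19 alternatives, with bIRI over Sham at -2.67 without bIRI 3 and -1.68 without bIRI 1. BHBNa_bIRI over bIRI was -0.51 (SE 0.26, adjusted p = 0.198), 0.11 against bIRI 1 alone and -0.89 against bIRI 3 alone. Ric8a and Psmd13 share 7.0% and 5.73% of its exon bases on the other strand, and whether counting used strand is not given in the sources used here.

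Sirt5, which removes succinyl and malonyl groups, was at 14.6, 11.02 and 11.8 CPM in BHBNa_bIRI, 10.05 and 8.14 CPM in bIRI, and 16.4, 17.9 and 20.2 CPM in Sham. The Sham libraries were the highest and the bIRI libraries the lowest. It was 1.997-fold lower in bIRI than in Sham (log2 fold change -0.998, SE 0.21, adjusted p = 0.00676), in all 19 alternatives, and 1.45-fold lower in BHBNa_bIRI than in Sham (-0.54, SE 0.19, adjusted p = 0.0409). That second call was lost without BHBNa_bIRI 2 or 3 or any 1 Sham library, at -0.66 to -0.45 over the 8 omissions. Length and GC trends taken out (-0.24), upper-quartile scaling (-0.44) or no filter (-0.56) lost it too. So did a replicate block, with the library number added to the model. Sirt4 was at 10.05, 9.71 and 11.2 CPM in BHBNa_bIRI, 7.86 and 11.7 CPM in bIRI, and 11.7, 12.7 and 15.04 CPM in Sham, and passed no test. All 10 proximal tubule markers given above fell in both comparisons with Sham, as did Sirt3 and Sirt5 but not Sirt4. The part of the tubule shift in the sirtuin values was not tested.

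Nuclear and cytosolic sirtuins divided: Sirt1 rose and Sirt2 and Sirt7 fell with injury, and Sirt6 rose with BHB and injury together. Sirt1, which deacetylates FOXO factors and PGC-1alpha, was at 11.4, 14.1 and 7.88 CPM in BHBNa_bIRI, 17.8 and 17.8 CPM in bIRI, and 10.1, 11.2 and 10.7 CPM in Sham. The bIRI libraries were alike and above all others. Sirt1 rose by 0.74 in bIRI over Sham (SE 0.24, adjusted p = 0.0388), and BHBNa_bIRI over bIRI was -0.67 (SE 0.24, adjusted p = 0.0839). The call held without BHBNa_bIRI 2 or 3 and was lost without each of the other 6 libraries, at 0.67 to 0.76 over all 8 omissions. It was lost also with length and GC trends taken out, at 0.50. Sirt2 was at 91.2, 67.5 and 75.5 CPM in BHBNa_bIRI, 63.0 and 56.2 CPM in bIRI, and 98.7, 96.8 and 113 CPM in Sham, with no overlap. It fell by 0.79 in bIRI over Sham (SE 0.19, adjusted p = 0.0104), and was at 0.39 in BHBNa_bIRI over bIRI (SE 0.18, adjusted p = 0.164) and -0.40 over Sham (SE 0.16, adjusted p = 0.0739).

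Sirt7, a nucleolar sirtuin, was at 43.0, 41.9 and 41.2 CPM in BHBNa_bIRI, 30.01 and 35.9 CPM in bIRI, and 48.9, 52.8 and 61.3 CPM in Sham. As with Sirt2, the BHBNa_bIRI libraries lay between the other groups. Sirt7 fell by 0.72 in bIRI over Sham (SE 0.17, adjusted p = 0.0102), while BHBNa_bIRI over bIRI was 0.35 (SE 0.17, adjusted p = 0.171) and over Sham -0.37 (SE 0.15, adjusted p = 0.0691). With length and GC trends taken out, bIRI over Sham was -0.38 and not called, BHBNa_bIRI over bIRI was -0.25, and BHBNa_bIRI over Sham was -0.62 and called. Sirt6, a chromatin-bound sirtuin, was at 9.56, 7.11 and 7.61 CPM in BHBNa_bIRI, 6.04 and 9.27 CPM in bIRI, and 4.77, 5.0 and 4.83 CPM in Sham. All injured libraries were above all Sham libraries. Sirt6 rose by 0.73 in BHBNa_bIRI over Sham (SE 0.23, adjusted p = 0.03). That call was lost without BHBNa_bIRI 1 or 3 or any 1 Sham library (0.60 to 0.82 over all 8 omissions). It was lost also with length and GC trends taken out (0.53), no filter (0.71) or a replicate block. In bIRI over Sham, Sirt6 was at 0.65 (SE 0.26, adjusted p = 0.0753).

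**Figure D3:**
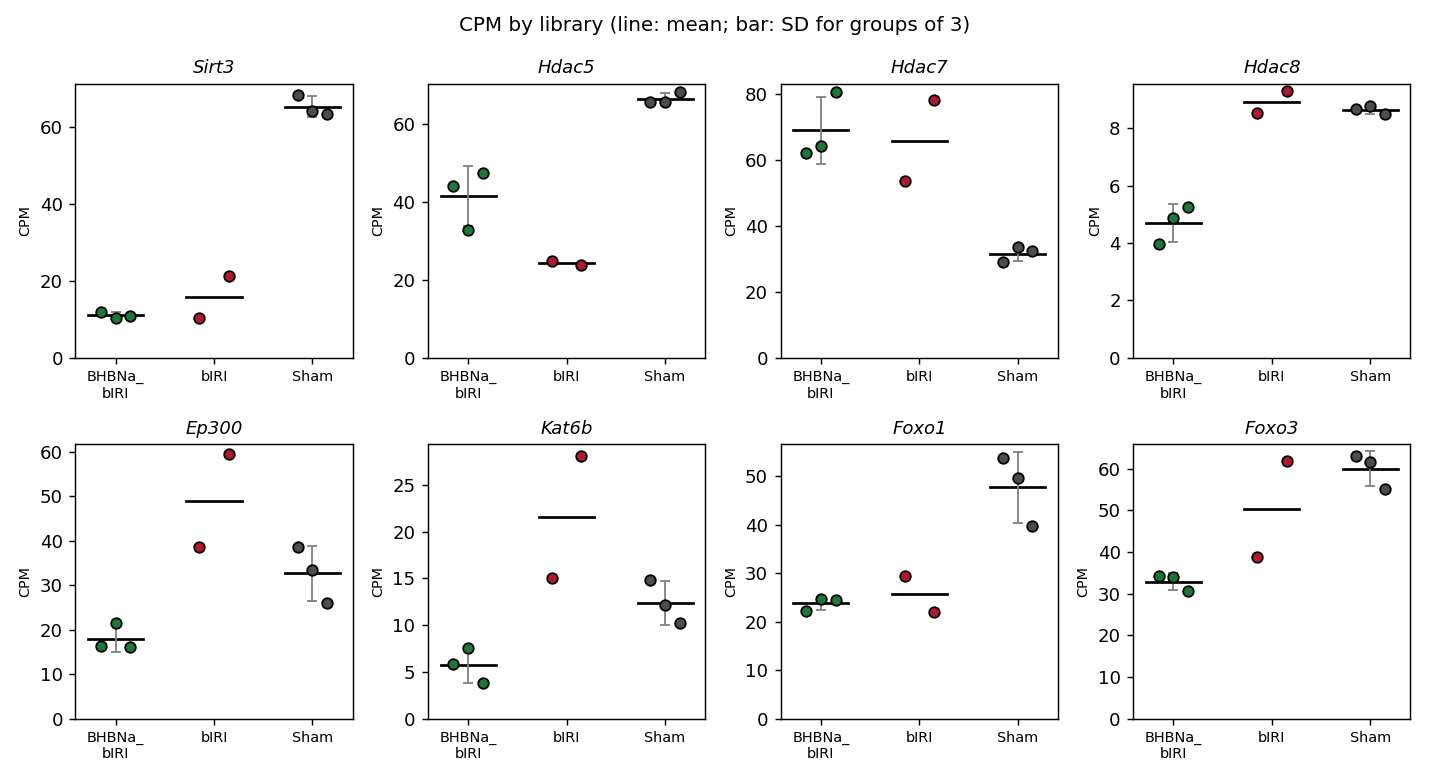
CPM of 8 genes in each library (points), with group means (lines) and SD for the groups of 3 (bars). Sirt3 and Foxo1 are low in all injured libraries, Hdac5 in BHBNa_bIRI lies between bIRI and Sham, and Hdac8, Ep300 and Kat6b are lowest in BHBNa_bIRI.

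Among the 9 acetyltransferases, BHB before injury went with lower Ep300, Kat2b, Kat6a and Kat6b than either bIRI or Sham, and with lower Kat5 and Kat7 than Sham. Ep300 (ENSMUSG00000055024, chromosome 15, 81585351 to 81652077 on GRCm38), a general transcriptional coactivator, was at 16.2, 21.4 and 16.1 CPM in BHBNa_bIRI, 38.5 and 59.5 CPM in bIRI, and 38.6, 33.4 and 26.1 CPM in Sham. The BHBNa_bIRI libraries lay below all others, and bIRI overlapped with Sham. Ep300 was 2.73-fold lower in BHBNa_bIRI than in bIRI (log2 fold change -1.45, SE 0.24, adjusted p = 0.0275) and 1.82-fold lower than in Sham (-0.86, SE 0.22, adjusted p = 0.0121). Against bIRI the call was lost without BHBNa_bIRI 1 or 3 or Sham 1 or 2 (-1.67 to -1.11 over all 8 omissions), and against Sham without BHBNa_bIRI 1 or 3 or Sham 1 (-1.01 to -0.73 over all 8 omissions). Its paralog Crebbp was at 21.4, 21.1 and 24.1 CPM in BHBNa_bIRI, 24.1 and 35.97 CPM in bIRI, and 19.4, 20.7 and 18.3 CPM in Sham. Crebbp rose by 0.63 in bIRI over Sham (SE 0.20, adjusted p = 0.0345), and was at 0.31 and not called without bIRI 3. It lost the call without each other library but bIRI 1 and BHBNa_bIRI 3. The call was lost also with length and GC trends taken out (0.40), no filter (0.57), the 2 groups fitted alone (0.63) or a replicate block. In BHBNa_bIRI over bIRI, Crebbp was at -0.43 (SE 0.20, adjusted p = 0.151).

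The MYST acetyltransferases Kat6a and Kat6b had the largest differences between the injured groups. Kat6a was at 14.2, 16.2 and 11.2 CPM in BHBNa_bIRI, 29.5 and 59.2 CPM in bIRI, and 30.6, 25.3 and 17.5 CPM in Sham. Kat6b (ENSMUSG00000021767, chromosome 14, 21481434 to 21672478 on GRCm38) was at 5.80, 7.56 and 3.80 CPM in BHBNa_bIRI, 15.1 and 28.1 CPM in bIRI, and 14.9, 12.1 and 10.2 CPM in Sham. In both genes all BHBNa_bIRI libraries were the lowest, and bIRI 3 was above bIRI 1. In BHBNa_bIRI over bIRI, Kat6a was 3.19-fold lower (log2 fold change -1.67, SE 0.32, adjusted p = 0.0275). Kat6b was 3.77-fold lower (-1.91, SE 0.34, adjusted p = 0.0275). Against bIRI 1 alone these were -1.09 for Kat6a, not called, and -1.40 for Kat6b, called, and against bIRI 3 alone -2.04 and -2.24; both calls were lost without BHBNa_bIRI 1 or 3 or Sham 1 or 2. In BHBNa_bIRI over Sham, Kat6a was at -0.82 (SE 0.29, adjusted p = 0.0468) and Kat6b at -1.11 (SE 0.31, adjusted p = 0.0175). Kat6a lost that call without any 1 BHBNa_bIRI library or Sham 1 or 2 (-1.01 to -0.63 over all 8 omissions), and Kat6b without BHBNa_bIRI 1 or 3 or Sham 1 (-1.36 to -0.89 over all 8 omissions). Kat6a lost it also with length and GC trends taken out (-0.45), with upper-quartile scaling (-0.72), with the filter at 1 CPM (-0.80) and with a replicate block. The processed pseudogenes Kat6b-ps1, Kat6b-ps2 and Kat2b-ps resemble these genes, so reads could be split between copies.

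Kat2b and Kat2a, paralogs that serve in the same SAGA and ATAC complexes, moved apart. Kat2b was at 27.1, 38.4 and 29.8 CPM in BHBNa_bIRI, 54.6 and 52.4 CPM in bIRI, and 67.4, 68.9 and 59.3 CPM in Sham, with no overlap. Kat2b was 2.05-fold lower in BHBNa_bIRI than in Sham (log2 fold change -1.04, SE 0.17, adjusted p = 0.00113), in all 19 alternatives, and 1.68-fold lower than in bIRI (-0.75, SE 0.18, adjusted p = 0.035). The call against bIRI held without bIRI 1 or BHBNa_bIRI 2 and was lost without each other library in turn (-0.91 to -0.65 over all 8 omissions). It was lost also with length and GC trends taken out, at -0.36. Kat2a was at 38.8, 34.1 and 41.5 CPM in BHBNa_bIRI, 27.1 and 28.2 CPM in bIRI, and 26.6, 28.4 and 25.6 CPM in Sham. Its BHBNa_bIRI libraries were the highest: it rose by 0.51 over Sham (SE 0.14, adjusted p = 0.0173) and was at 0.47 over bIRI (SE 0.16, adjusted p = 0.0765). The call over Sham was lost without BHBNa_bIRI 1 or 3 or any 1 Sham library (0.45 to 0.58 over all 8 omissions). It was lost also with no filter (0.48) and with a replicate block.

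Of the other MYST members, Kat5 and Kat7 fell and Kat8 did not pass. Kat5, the catalytic subunit of the NuA4 complex, was at 17.1, 15.03 and 13.6 CPM in BHBNa_bIRI, 18.3 and 18.7 CPM in bIRI, and 25.8, 23.7 and 23.3 CPM in Sham. The order of the groups was the same in every library: BHBNa_bIRI lowest, Sham highest. Kat5 fell by 0.67 in BHBNa_bIRI over Sham (SE 0.15, adjusted p = 0.00672), in all 19 alternatives; Rnaseh2c on the other strand shares 12.1% of its exon bases. Kat7 was at 28.6, 35.6 and 39.1 CPM in BHBNa_bIRI, 40.0 and 40.0 CPM in bIRI, and 56.7, 51.6 and 40.6 CPM in Sham. It fell by 0.53 in BHBNa_bIRI over Sham (SE 0.18, adjusted p = 0.0375). That call was lost without BHBNa_bIRI 1 or 2 or Sham 1 or 2 (-0.66 to -0.41 over all 8 omissions). It was lost also with length and GC trends taken out (-0.23), upper-quartile scaling (-0.43) or a replicate block. Kat8 stayed between 12.4 and 17.0 CPM in all 8 libraries.

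The readers Brd2 and Brd3, BET proteins that bind acetylated histone tails, were highest in bIRI. Brd3 was at 25.3, 24.5 and 26.7 CPM in BHBNa_bIRI, 29.2 and 39.6 CPM in bIRI, and 19.4, 23.8 and 18.3 CPM in Sham. No groups overlapped, with BHBNa_bIRI between the others. Brd3 rose by 0.75 in bIRI over Sham (SE 0.19, adjusted p = 0.0148), was at 0.51 and not called without bIRI 3, and lost the call without Sham 1 or Sham 3 too. Brd2 was at 112, 117 and 113 CPM in BHBNa_bIRI, 142 and 190 CPM in bIRI, and 133, 119 and 91.5 CPM in Sham. Its log2 fold changes of 0.53 in bIRI over Sham (SE 0.21, adjusted p = 0.0716) and -0.54 in BHBNa_bIRI over bIRI (SE 0.21, adjusted p = 0.1) did not pass.

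Among corepressor scaffolds, Rcor1 and Ncor1 were lower and Sin3b higher in BHBNa_bIRI than in Sham, while none of the 4 passed in bIRI over Sham. Rcor1, the core of the CoREST complex with Hdac1 and Hdac2, was at 14.2, 14.9 and 10.8 CPM in BHBNa_bIRI, 22.3 and 29.5 CPM in bIRI, and 29.7, 28.2 and 22.9 CPM in Sham. The BHBNa_bIRI libraries lay below all others. Rcor1 was 2.03-fold lower than in Sham (log2 fold change -1.02, SE 0.20, adjusted p = 0.00289), in all 19 alternatives, and 1.95-fold lower than in bIRI (-0.96, SE 0.21, adjusted p = 0.0306). The call against bIRI was lost without BHBNa_bIRI 1 or 3, Sham 1 or 2, or bIRI 3 (-1.09 to -0.75 over all 8 omissions). It was lost also with length and GC trends taken out, at -0.52. Ncor1, the scaffold that activates Hdac3, was at 61.8, 60.8 and 56.2 CPM in BHBNa_bIRI, 72.2 and 136 CPM in bIRI, and 107, 98.2 and 95.8 CPM in Sham. The 2 bIRI libraries lay on either side of Sham. Ncor1 fell by 0.75 in BHBNa_bIRI over Sham (SE 0.22, adjusted p = 0.0207). That call held without Sham 3, bIRI 1 or bIRI 3 and was lost without each of the other 5 libraries (-0.79 to -0.71 over all 8 omissions). It was lost also with length and GC trends taken out, at -0.39. The log2 fold change of Ncor1 in BHBNa_bIRI over bIRI was -0.81 (SE 0.24, adjusted p = 0.053), -0.28 against bIRI 1 alone and -1.14 against bIRI 3 alone.

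Of the Sin3 paralogs, Sin3b passed against Sham and Sin3a did not. Sin3b was at 109, 90.3 and 106 CPM in BHBNa_bIRI, 78.1 and 57.6 CPM in bIRI, and 66.7, 64.4 and 72.9 CPM in Sham, with the BHBNa_bIRI libraries the highest. It rose by 0.58 in BHBNa_bIRI over Sham (SE 0.17, adjusted p = 0.0187), lost without BHBNa_bIRI 1 or 3 or Sham 1 or 2 (0.53 to 0.66 over all 8 omissions), and was at 0.59 in BHBNa_bIRI over bIRI (SE 0.19, adjusted p = 0.0643). Sin3a was at 21.1, 20.2 and 18.6 CPM in BHBNa_bIRI, 19.9 and 35.6 CPM in bIRI, and 32.5, 26.7 and 27.6 CPM in Sham. It passed no test: BHBNa_bIRI over Sham was -0.54 (SE 0.21, adjusted p = 0.068). Of 29 other corepressor subunits tested, 4 rose and 4 fell in bIRI over Sham, 2 rose and 2 fell in BHBNa_bIRI over bIRI, and 5 rose and 5 fell in BHBNa_bIRI over Sham. The shares of all genes tested that rose and fell were 18.9% and 16.2%, 4.88% and 8.65%, and 21.3% and 22.2% in that order. The median log2 fold changes of the 29 subunits were 0.28, -0.21 and 0.05 in the same order, beside 0.08, -0.05 and 0.04 over all genes tested. The omissions of 1 library that left 0 or 1 gene called in BHBNa_bIRI over bIRI apply to this and the following lists too. So does the length and GC correction, with which 2 of all genes were called in that comparison. In bIRI over Sham, Arid4b and Arid4a, subunits of Sin3 complexes, rose by 1.81 and 1.53, and Sap30, of the same complexes, fell by 2.04. Arid4a was at -1.77, the NuRD subunit Gatad2b at -0.86, Mbd3 at 0.95 and the CoREST subunit Hmg20b at 0.70 in BHBNa_bIRI over bIRI. With length and GC trends taken out, Gatad2b was at -0.21, Mbd3 at 0.21 and Hmg20b at -0.08. None of these was then called, where 2 of all genes were. The NuRD helicase gene Chd3 was at -1.62 in BHBNa_bIRI over Sham.

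All 3 FOXO genes, targets of deacetylases whose proteins drive stress and gluconeogenic genes, were lower in BHBNa_bIRI than in Sham. Foxo3 (ENSMUSG00000048756, chromosome 10, 42181841 to 42276755 on GRCm38) was at 34.2, 33.9 and 30.5 CPM in BHBNa_bIRI, 38.7 and 61.8 CPM in bIRI, and 63.1, 61.5 and 55.2 CPM in Sham. The BHBNa_bIRI libraries were the lowest of the 8, and bIRI 3 lay within the Sham range. Foxo3 was 1.82-fold lower in BHBNa_bIRI than in Sham (log2 fold change -0.87, SE 0.19, adjusted p = 0.00503), in all 19 alternatives. In BHBNa_bIRI over bIRI it was at -0.61 (SE 0.20, adjusted p = 0.0711), -0.24 against bIRI 1 alone and -0.86 against bIRI 3 alone, and in bIRI over Sham at -0.25 (SE 0.21, adjusted p = 0.372). Without bIRI 3, bIRI over Sham was -0.63 and called.

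Foxo1 was at 22.2, 24.6 and 24.3 CPM in BHBNa_bIRI, 29.4 and 21.9 CPM in bIRI, and 53.7, 49.5 and 39.7 CPM in Sham, and no injured library reached the Sham range. It was 2.01-fold lower in BHBNa_bIRI than in Sham (log2 fold change -1.01, SE 0.18, adjusted p = 0.00176) and 1.86-fold lower in bIRI than in Sham (-0.89, SE 0.20, adjusted p = 0.00813), both in all 19 alternatives. BHBNa_bIRI over bIRI was -0.11 (SE 0.19, adjusted p = 0.714). Foxo4 was at 17.3, 13.9 and 15.5 CPM in BHBNa_bIRI, 17.9 and 27.1 CPM in bIRI, and 38.2, 35.1 and 33.4 CPM in Sham, again with every injured library below Sham. Foxo4 was 2.29-fold lower in BHBNa_bIRI than in Sham (log2 fold change -1.19, SE 0.19, adjusted p = 0.00102), in all 19 alternatives, and 1.58-fold lower in bIRI than in Sham (-0.66, SE 0.21, adjusted p = 0.0364). That last call held without bIRI 3 (-0.99) and was lost without each of the other 7 libraries in turn, down to -0.46 without bIRI 1. It was also lost with length and GC trends taken out (-0.42), with upper-quartile scaling (-0.57) and with the filter at 1 CPM (-0.60). The 2 groups fitted alone (-0.65) and a replicate block lost it too.

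The counts of the following lists stand beside 18.9% of all genes higher and 16.2% lower in bIRI over Sham, 4.88% and 8.65% in BHBNa_bIRI over bIRI, and 21.3% and 22.2% in BHBNa_bIRI over Sham, and their medians beside 0.08, -0.05 and 0.04. Of 23 genes reported as FOXO targets or as responsive to BHB, 3 rose and 10 fell in bIRI over Sham, none rose and 5 fell in BHBNa_bIRI over bIRI, and 3 rose and 14 fell in BHBNa_bIRI over Sham, with median log2 fold changes of -0.25, -0.58 and -0.86 in that order. The glucose-6-phosphatase gene G6pc was at 9.11, 9.67 and 8.80 CPM in BHBNa_bIRI, 19.7 and 14.7 CPM in bIRI, and 334, 262 and 240 CPM in Sham, and was called lower in all 3 comparisons, at -0.90 in BHBNa_bIRI over bIRI (SE 0.20, adjusted p = 0.0308). Igfbp1 was at -5.89 in BHBNa_bIRI over Sham and -4.83 in bIRI over Sham. The DNA damage gene Gadd45a went against these, at 1.65 in BHBNa_bIRI over Sham and 2.08 in bIRI over Sham. Rictor was at -1.34 and the cell cycle inhibitor Cdkn1b at -1.005 in BHBNa_bIRI over bIRI.

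The antioxidant genes tied to BHB in earlier reports were described whatever their call. Catalase, Cat, was at 312, 344 and 303 CPM in BHBNa_bIRI, 460 and 508 CPM in bIRI, and 2168, 1929 and 1856 CPM in Sham. It fell by 2.63 in BHBNa_bIRI over Sham (SE 0.19, adjusted p = 2.26e-05) and by 2.04 in bIRI over Sham (SE 0.22, adjusted p = 0.00025), and BHBNa_bIRI over bIRI was -0.60 (SE 0.20, adjusted p = 0.0734). The mitochondrial superoxide dismutase gene Sod2 was at 189, 177 and 207 CPM in BHBNa_bIRI, 157 and 156 CPM in bIRI, and 391, 395 and 426 CPM in Sham, with BHBNa_bIRI over bIRI at 0.29 (SE 0.18, adjusted p = 0.279). Metallothionein Mt1 rose by 3.40 in BHBNa_bIRI over Sham (SE 0.58, adjusted p = 0.0016) and by 2.57 in bIRI over Sham (SE 0.60, adjusted p = 0.0096), the last of these at 0.69 and not called without bIRI 1. In BHBNa_bIRI over bIRI it was at 0.84 (SE 0.61, adjusted p = 0.356); the bIRI libraries were far apart, at 12393 counts in bIRI 3 and 73735 in bIRI 1. Mt2 had 159, 147 and 142 counts in BHBNa_bIRI, 220 and 29 in bIRI, and 1, 2 and 8 in Sham, was called higher in both comparisons with Sham, and had an adjusted p of 0.744 in BHBNa_bIRI over bIRI. Mt1 and Mt2 are near copies, so their split of reads is uncertain.

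Of 14 FOXO kinases and regulators, 5 rose and 1 fell in bIRI over Sham, none rose and 5 fell in BHBNa_bIRI over bIRI, and 3 rose and 2 fell in BHBNa_bIRI over Sham, with medians of 0.43, -0.49 and 0.21 on the log2 scale in that order. The shares over all genes were 18.9% and 16.2%, 4.88% and 8.65%, and 21.3% and 22.2% in these comparisons. The lysine methyltransferase gene Setd7 was at 6.90, 9.32 and 6.90 CPM in BHBNa_bIRI, 17.1 and 44.4 CPM in bIRI, and 9.09, 9.98 and 7.60 CPM in Sham, with bIRI 3 far above bIRI 1. Setd7 was at -2.00 in BHBNa_bIRI over bIRI (SE 0.35, adjusted p = 0.0275) and at 1.79 in bIRI over Sham (SE 0.35, adjusted p = 0.00432), the last of these at 0.94 and called without bIRI 3. Akt2, which encodes a kinase that phosphorylates FOXO factors, was at -0.91 in bIRI over Sham.

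Genes of acetyl-CoA and NAD supply and use were counted next, acetyl-CoA being the substrate of acetyltransferases and NAD that of sirtuins. The list is mixed, since it also holds the NAD-consuming enzyme genes Parp1, Parp2 and Cd38. Of 18, 2 rose and 11 fell in bIRI over Sham, 1 rose and 3 fell in BHBNa_bIRI over bIRI, and 4 rose and 10 fell in BHBNa_bIRI over Sham. The medians were -0.70, 0.25 and -0.69 on the log2 scale in that order. The shares over all genes were 18.9% and 16.2%, 4.88% and 8.65%, and 21.3% and 22.2% in these comparisons. The acetate-activating enzyme gene Acss2 was at 41.0, 38.2 and 33.2 CPM in BHBNa_bIRI, 27.5 and 57.1 CPM in bIRI, and 313, 370 and 324 CPM in Sham. It was at -3.16 in BHBNa_bIRI over Sham (SE 0.27, adjusted p = 4.17e-05) and -2.99 in bIRI over Sham (SE 0.32, adjusted p = 0.000233). Nampt, the rate-limiting enzyme of NAD salvage, was at 123, 91.7 and 97.0 CPM in BHBNa_bIRI, 142 and 218 CPM in bIRI, and 186, 183 and 176 CPM in Sham. It was at -0.80 in BHBNa_bIRI over bIRI (SE 0.22, adjusted p = 0.0436), -0.81 over Sham (SE 0.20, adjusted p = 0.0102) and -0.01 in bIRI over Sham (SE 0.22, adjusted p = 0.98). Naprt, which starts NAD synthesis from nicotinic acid, went the other way in BHBNa_bIRI over bIRI, at 1.15.

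Other readers and writers were counted in the same way. Of 28 other bromodomain and YEATS readers, 12 rose and 1 fell in bIRI over Sham, none rose and 9 fell in BHBNa_bIRI over bIRI, and 8 rose and 4 fell in BHBNa_bIRI over Sham, with medians of 0.65, -0.76 and 0.15 on the log2 scale in that order. In BHBNa_bIRI over bIRI all genes tested also held more lower than higher calls, 8.65% against 4.88%. With length and GC trends taken out, 2 of all genes were called in that comparison. The ATPase gene Atad2 was at 4.24, 4.5 and 3.50 CPM in BHBNa_bIRI, 3.72 and 6.35 CPM in bIRI, and 0.795, 0.616 and 1.14 CPM in Sham, and rose by 2.57 in bIRI over Sham. Atad2 goes with proliferation, and the 8 cell cycle genes summed to 124 to 158 CPM in BHBNa_bIRI, 101 to 123 CPM in bIRI and 48.7 to 61.0 CPM in Sham. The histone methyltransferase gene Ash1l was at 11.9, 14.1 and 8.40 CPM in BHBNa_bIRI, 25.2 and 66.2 CPM in bIRI, and 27.4, 22.9 and 17.2 CPM in Sham, and was at -2.00 in BHBNa_bIRI over bIRI. Of 35 other acetyltransferases and subunits, 5 rose and 3 fell in bIRI over Sham, 2 rose and 9 fell in BHBNa_bIRI over bIRI, and 4 rose and 11 fell in BHBNa_bIRI over Sham, with medians of 0.14, -0.50 and -0.12 on the log2 scale in that order. The SAGA subunit gene Tada1 was at -2.00, Taf1 at -1.86 and the amino-terminal acetyltransferase gene Naa10 at 1.80 in BHBNa_bIRI over bIRI.

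The difference between BHBNa_bIRI and bIRI went with transcript length. The Spearman correlation of log2 fold change with the length of the longest transcript was -0.495 over the 36 genes and -0.537 over 12390 well-expressed genes, as a description, since all points share the same libraries. With GC content it was 0.572 over the 36 and 0.446 over the 12390. The 36 have a median longest transcript of 4128.5 bases, against 2760.5 over all genes tested, and the 6 that fell a median of 6691.5. With length and GC trends taken out of each library, the correlations over the 36 were 0.109 and 0.0788, and the median log2 fold change was -0.18, against -0.33 without the correction. Ep300 was then at -0.95, Kat6a at -0.99 and Kat6b at -1.32, against -1.45, -1.67 and -1.91 without the correction. Hdac8, with a transcript of 1936 bases, was at -1.04, against -0.93. None of these was called, since 2 of all genes were.

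**Figure D4:**
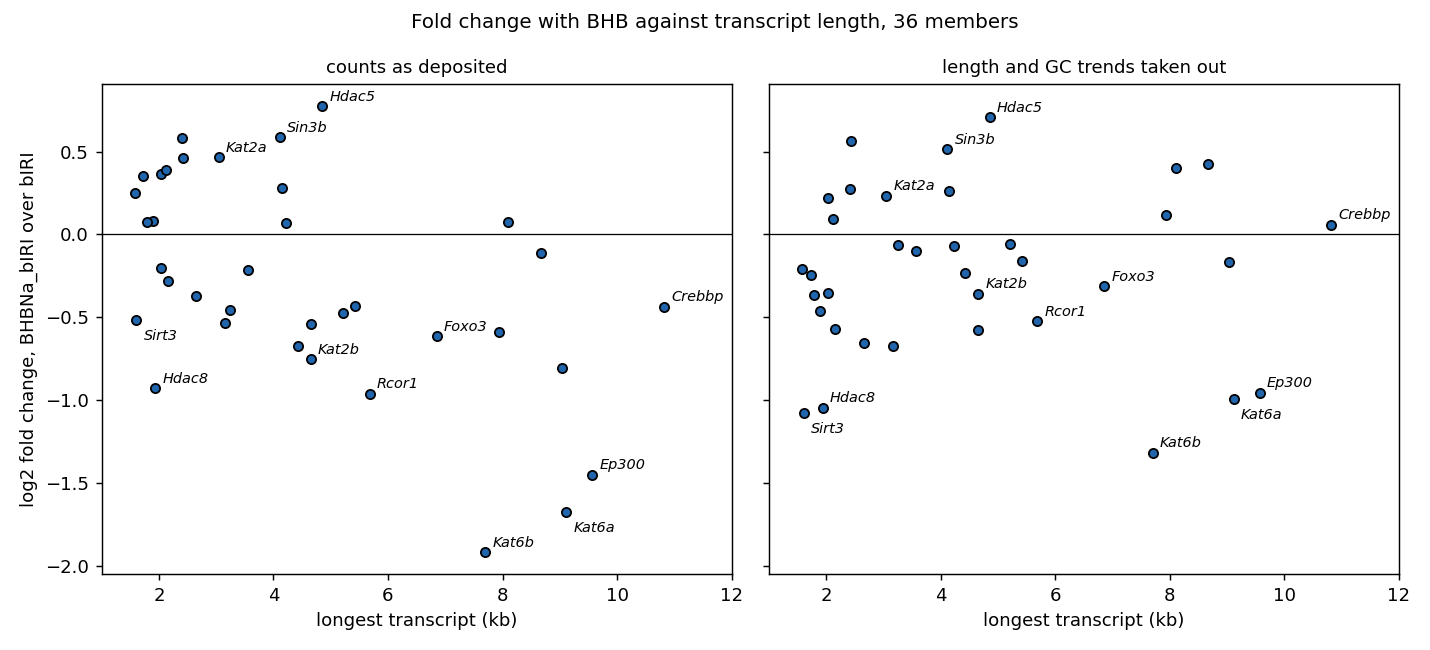
Log2 fold change of BHBNa_bIRI over bIRI of the 36 genes against the length of the longest transcript in kb, with the counts as deposited (left) and with length and GC trends taken out (right). The long genes Ep300, Kat6a and Kat6b move toward 0 on the right, and Hdac8 and Sirt3 away from it.

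The fold changes of BHBNa_bIRI over bIRI also depended on which bIRI library was set against it. With bIRI 1 alone, 20 of the 36 genes were below 0, and with bIRI 3 alone 24, and 28 of the 36 had the same sign against both. The 8 that changed sign were Hdac4, Hdac7, Hdac9, Hdac11, Sirt6, Sirt3, Sirt4 and Foxo1, none of them called in BHBNa_bIRI over bIRI. Hdac5, Hdac8 and Kat2b differed little between the 2, at 0.74 and 0.86, -0.87 and -0.93, and -0.79 and -0.66 against bIRI 1 and bIRI 3.

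**Figure D5:**
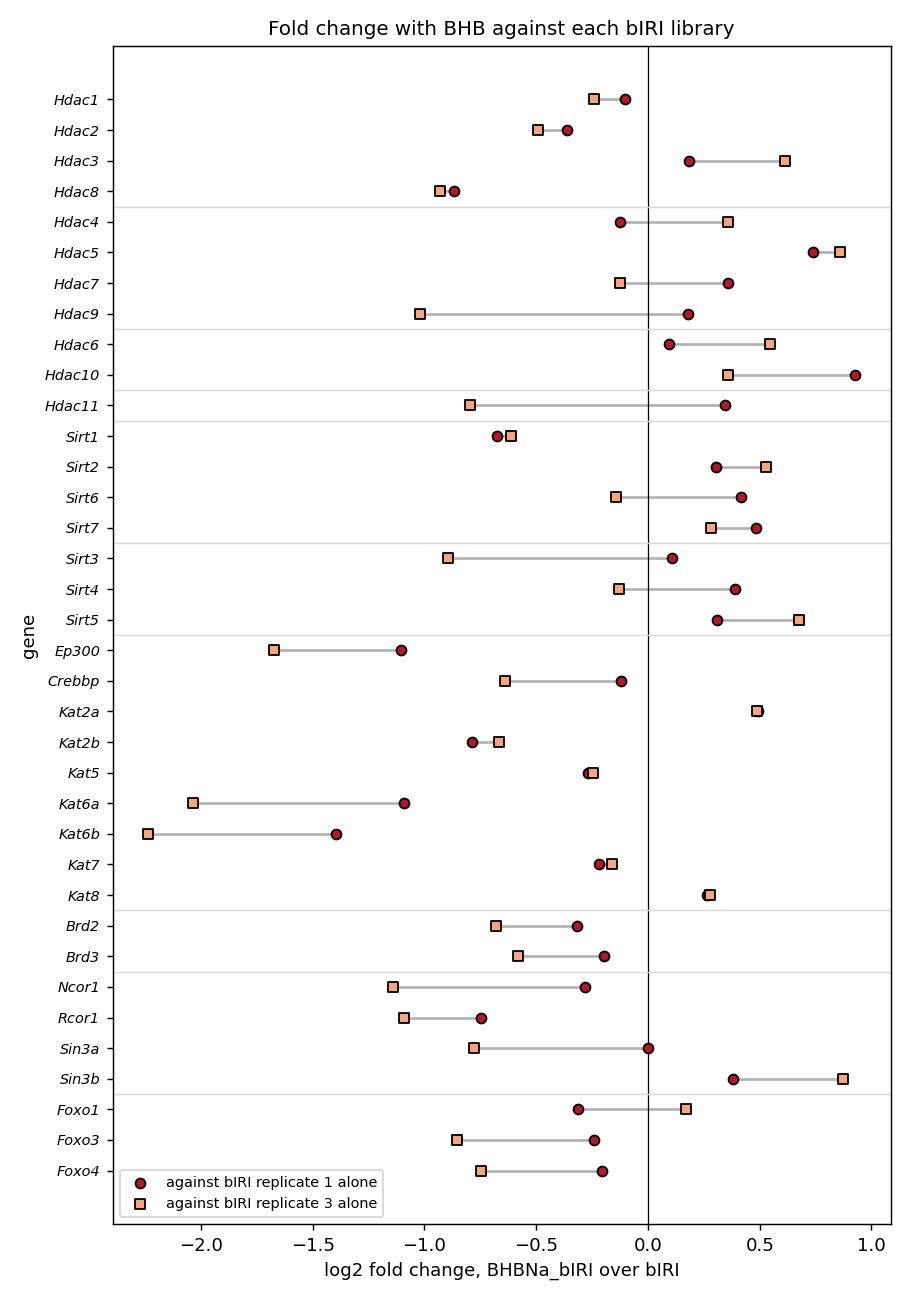
Log2 fold change of BHBNa_bIRI over bIRI for each gene against bIRI 1 alone (circles) and bIRI 3 alone (squares), joined by a line. Hdac5, Hdac8 and Kat2b have short lines on 1 side of 0, and Hdac11, Sirt3 and Hdac9 have long lines across it.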

How the data were processed

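The authors deposited raw counts per gene for each library, made from paired-end poly(A)-selected RNA reads; the tools named are HISAT2, featureCounts, Subread and DESeq2 on mm10, per the submitters' processing notes, with versions and the strand setting not given in the sources used here. Counts were fitted with edgeR 4.0.16 in R 4.3.3 (TMM scaling, filterByExpr, robust quasi-likelihood test, Benjamini-Hochberg adjustment over 17967 genes, threshold 0.05) in 1 model over the 8 libraries used; residual degrees of freedom numbered 5, and the common biological coefficient of variation was 0.296. CPM used TMM library sizes; 3 counts, taken as the detection floor, correspond to 0.0646 to 0.0815 CPM, for counting error only. Gene names came from GENCODE M21 (29220 of 29678 identifiers). The text gives every library's value for called members and for Hdac1, Hdac2, Hdac3, Foxo3, Cat, Sod2 and, as counts, Mt2. For Mt1 it gives the bIRI counts only. From each pathway list it names some of up to 4 called genes per direction by size of change, several by fold change alone. Hdac9, Kat8 and other uncalled members are given more briefly. The members and lists were chosen with earlier results of these data known. Promoter windows and motifs were read from RefSeq. The fitting script was tested on simulated data. Of 100 simulated 2-fold changes per comparison 19 to 24 were called, and of 100 4-fold changes 82 to 88. A gene that passed no test may therefore still have changed by 2-fold, and in some cases by 4-fold. Alternatives were DESeq2 1.42.0, other scalings and filters, the compared groups alone, all 9 libraries, a replicate block, a correction for length and GC, and leaving out each library.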

Additional observations from a re-analysis of the deposited data

How the results depend on the processing

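All 40 member calls kept their sign under the 19 alternatives: 5 of 12 in bIRI over Sham, 0 of 7 in BHBNa_bIRI over bIRI and 12 of 21 in BHBNa_bIRI over Sham were called in every one. In bIRI over Sham, all 9 libraries (the mean library counted as a replicate) gave 11 members higher and 11 lower, with 8433 genes called. Upper-quartile scaling gave 8 members higher, beside 3808 of all genes. Leaving out 1 library gave 2 to 9 members higher, 6 to 13 lower and 4180 to 9064 of all genes called. Ncor1, at 0.06 in that comparison and not called, was at -0.47 and called without bIRI 3 (edgeR adjusted p = 0.049) and at 0.37 without bIRI 1. In BHBNa_bIRI over bIRI, the 1 CPM filter gave 2 members higher with 2802 genes called, and upper-quartile scaling 2 higher with 2421 genes called. DESeq2 gave 2 higher with 4210 genes called, and all 9 libraries 6 higher and 12 lower with 5847 genes called. The compared groups alone gave 0 members higher and 0 lower with 1 gene called by edgeR, although 11 members and 4495 genes had an unadjusted p below 0.05. The length and GC correction gave 0 higher and 0 lower with 2 genes called by edgeR (13 members and 4695 genes unadjusted). Leaving out 1 library gave 0 to 6 members higher, 0 to 16 lower and 0 to 8381 genes. In BHBNa_bIRI over Sham, no filter gave 3 members higher, beside 3790 of 29045 genes. Leaving out 1 BHBNa_bIRI or Sham library gave 2 to 5 members higher and 10 to 15 lower. Of all genes, 2473 to 3101 were then higher and 2935 to 3403 lower. The causes were not tested.

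Same-numbered libraries did not deviate together (correlations of -0.206 to 0.0925). Differently numbered libraries were not compared with these, so the correlations cannot decide whether the numbers pair the samples. The sources used here do not say whether they do. With a replicate block, BHBNa_bIRI over bIRI had 0 members higher, 0 lower and 0 genes called by edgeR (14 members and 5270 genes unadjusted), bIRI over Sham 4 higher and 6 lower with 4581 genes, and BHBNa_bIRI over Sham 3 higher and 13 lower with 6556 genes. The replicate block with the length and GC correction gave 0 higher, 0 lower and 0 genes (13 members and 3800 genes unadjusted) in BHBNa_bIRI over bIRI. In bIRI over Sham it gave 2 higher and 4 lower with 4768 genes.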
